A study of Nematostella vectensis and Apis mellifera and Strongylocentrotus purpuratus with 22 samples.

Results

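DNA methylation of cleavage embryos and blastulae of the sea anemone Nematostella vectensis from Massachusetts (MA) was compared with that of sperm from the same population. The comparison rests on 3 of the 22 libraries of a whole-genome bisulfite sequencing (WGBS) series on 4 invertebrates: MA cleavage embryos, MA blastulae and MA sperm, chosen by their labels. Bisulfite turns cytosines without a methyl group into bases that sequencing reads as thymine, and the methylation level of a CpG is the fraction of its reads that still show a cytosine. The animals were wild-type lines raised in the laboratory. Embryos came from egg masses fertilized with sperm-containing water, and sperm from bowls that held males only, with a low-speed centrifugation to remove somatic cells. The labels give no treatment for either stage. Each of the 3 libraries is 1 replicate according to the labels, and whether sperm and embryos had the same parents is not given in the sources used here. Stage and parents therefore cannot be told apart in these libraries. The 5 libraries from Florida (FL) served for comparison: cleavage embryos, blastulae, gastrulae, oocytes and sperm. The labels give 2 replicates for FL cleavage embryos and gastrulae and 1 for the others, while the study's supplement lists a single sample of each. MA oocytes are not analysed here.

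In sea anemone, as in many invertebrates, CpG methylation is mosaic: long methylated domains, mostly over transcribed gene bodies, alternate with unmethylated stretches of the genome. DNMT1 copies an existing pattern onto the new strand after replication, and DNMT3 can set methylation anew. A sperm sample holds paternal genomes only, whereas each embryo holds a maternal and a paternal copy of every locus.

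The MA libraries held 69290307 reads over CpGs at cleavage, 100697789 in blastulae and 90154514 in sperm, with a median of 9, 13 and 11 reads per covered CpG. The FL libraries were deeper, with 144249874 to 389977166 reads. One feature of the MA sperm library touches all results below. Where MA embryos and FL libraries differed strongly, MA sperm lay between them and not with MA embryos.

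For CpGs read at least 5 times in both libraries, the mean methylation level was 0.144 in MA cleavage embryos and 0.133 in MA sperm, a difference of 0.0107 over 5351452 CpGs (95% binomial confidence interval 0.0107 to 0.0108, normal approximation). It was 0.139 in MA blastulae and 0.132 in MA sperm, a difference of 0.00726 over 5776099 CpGs (0.00720 to 0.00732). These intervals cover counting error only. Both MA embryos thus had the higher mean over equally weighted CpGs. With reads pooled over CpGs, which gives deep CpGs more weight, the blastula difference was 0.000582 and the cleavage difference 0.00922.

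The small shift of the mean came with large differences at a limited number of places. In 1000-bp windows with at least 3 shared CpGs, a window was counted as different when its mean level differed by at least 0.2 and Fisher's exact test on its reads (2-sided) gave a p-value below 0.05 after Benjamini-Hochberg adjustment over all windows tested. At cleavage, 6029 of 229110 windows were higher than in MA sperm (2.63% of windows tested) and 1237 were lower (0.540%). In blastulae, 5323 of 236714 windows were higher than in MA sperm (2.25%) and 1501 were lower (0.634%). In both embryos, 3834 of 225752 windows were higher (1.70%) and 644 were lower (0.285%). Higher windows thus made up 85.6% of the windows that differed from sperm in both embryos. The 2 comparisons share the sperm library, so that an error or a peculiarity of that library would appear in both. The test sets 1 library against another rather than conditions, has no replicate check, and treats the reads of neighbouring CpGs as independent although 1 fragment can cover several CpGs. When reads and methylated reads were divided by the number of CpGs of the window, so that each window counts as a single CpG of average depth, 0 windows passed in both embryos at the adjusted threshold, and 407 higher and 63 lower windows had an unadjusted p below 0.05 by Fisher's exact test in both.

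**Figure D1:**
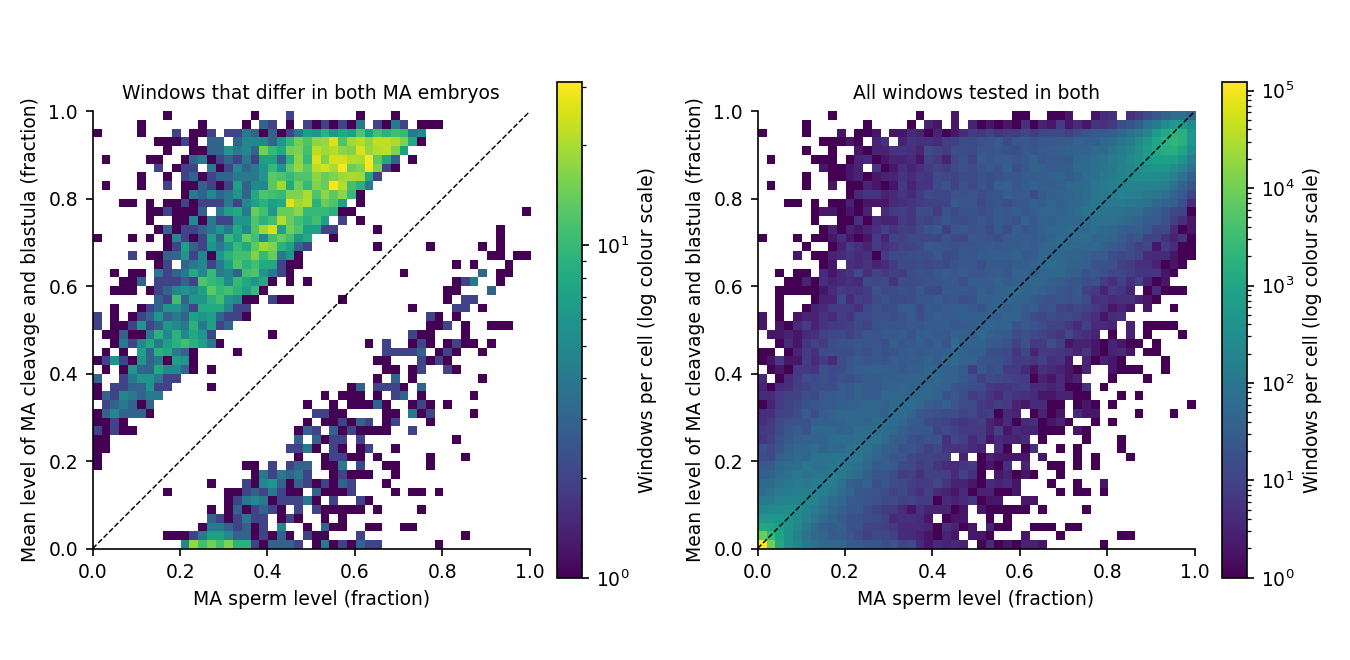
Each cell counts 1000-bp windows by their level in MA sperm (x axis, fraction) and their mean level in MA cleavage embryos and blastulae (y axis, fraction), on a log colour scale, for the windows that differ in both embryos (left) and all 225752 windows tested in both (right). The 3834 higher windows lie above the dashed line of equal levels, mostly at intermediate sperm levels, and the 644 lower windows lie below it.

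The windows higher in both embryos mostly had high levels in embryos and intermediate levels in sperm. Their median level was 0.813 at cleavage (interquartile range 0.670 to 0.90), 0.791 in blastulae (0.641 to 0.884) and 0.430 in MA sperm (0.295 to 0.543). In cleavage embryos 53.3% of them were above 0.8, in blastulae 47.7%, and in MA sperm none of the 3834. Of the same windows, 87.3% were between 0.2 and 0.8 in MA sperm, a range that held 11.7% of all windows tested. The rule itself requires a gap to embryos, so that these shares describe the windows and test nothing. The windows lower in both embryos mirrored this. Their median level was 0.129 at cleavage, 0.146 in blastulae and 0.491 in MA sperm, and 88.8% of them were between 0.2 and 0.8 in MA sperm.

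The FL libraries took no part in choosing these windows. In the windows higher in both MA embryos, the median level was 0.0698 in FL cleavage embryos, 0.0669 in FL blastulae, 0.0681 in FL gastrulae, 0.0429 in FL oocytes and 0.0503 in FL sperm. All 5 were far below the MA embryos and also below MA sperm. Of the 3782 such windows with levels in all 5 FL libraries, 86.1% had an MA sperm level below both MA embryos, which the choice of windows fixes, and above every FL library, which it does not. Over all windows with these levels, 7.91% had MA sperm so placed. There neither condition is fixed and most windows are unmethylated, so that much of the gap between these shares can be built in. In 92.1% of the higher windows both MA embryos were above every FL library by at least 0.2. Over all windows, MA embryos differed from every FL library by that margin, in either direction, in 4.94%. The rule asks for embryos above sperm, which favours high embryo levels, so that the 92.1% describes the windows.

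In the windows lower in both MA embryos, FL levels were high. The median was 0.664 in FL cleavage embryos, 0.661 in FL blastulae, 0.667 in FL gastrulae, 0.659 in FL oocytes and 0.692 in FL sperm. Of 619 windows with all levels, 54.3% had an MA sperm level above both MA embryos, again fixed by the choice of windows, and below every FL library. Over all windows with these levels, 2.23% had MA sperm so placed. That base again has neither condition fixed, so that the shares are not alike. In 68.5% of the lower windows both MA embryos were below every FL library by at least 0.2. The rule favours low embryo levels here, so that this share describes the windows. Read the other way round, both MA embryos were above every FL library by at least 0.2 in 9372 windows, and 37.2% of these were higher than MA sperm in both embryos. Both were below every FL library by that margin in 1397 windows, and 30.4% of these were lower than MA sperm in both. Of the remaining 207304 windows, 0.144% were higher and 0.0941% were lower than MA sperm in both embryos. Most windows in which MA embryos differed from MA sperm were thus windows in which MA embryos also differed from all FL libraries.

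**Figure D2:**
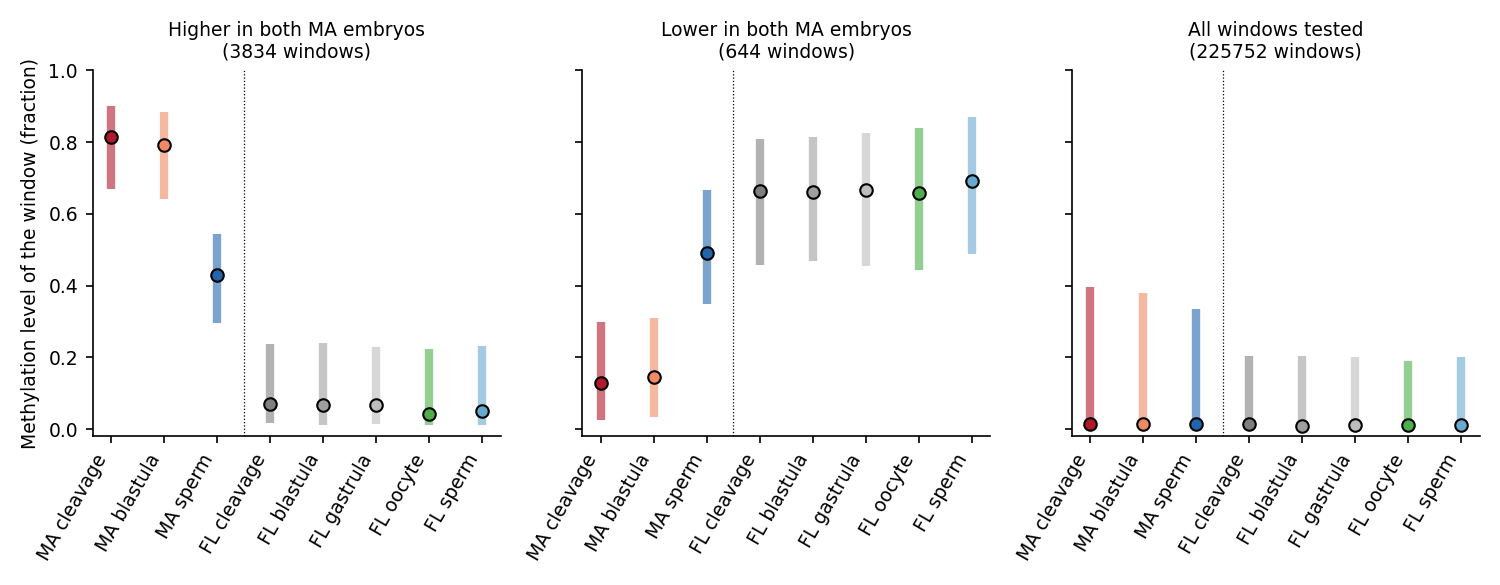
Methylation level (fraction) of the windows higher in both MA embryos, lower in both, and all windows tested, in the 3 MA libraries (left of the dotted line) and the 5 FL libraries (right of it); points are medians over windows and bars run from the 25th to the 75th percentile. MA sperm, with medians of 0.430 and 0.491, lies between the MA embryos and the FL libraries in the first and second panels.

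To place MA sperm without using any sperm library to choose windows, windows were taken in which both MA embryos differed by at least 0.5 from FL oocytes, cleavage embryos, blastulae and gastrulae, all in the same direction. This comparison was added after the data were seen. The position of a sperm library was scaled so that 0 is the mean of those 4 FL libraries and 1 is the mean of the MA embryos. The levels that chose the windows thus also set both ends of the scale. Such a choice favours extreme levels at the ends and can move a library left out of it inwards. The size of this effect was not tested. In the 3309 windows where MA embryos were higher, on 541 scaffolds, the median position was 0.576 for MA sperm (interquartile range 0.463 to 0.687) and -0.002 for FL sperm (-0.017 to 0.015). FL sperm thus lay with the other FL libraries, while MA sperm lay between them and the MA embryos. MA sperm was between 0.3 and 0.8 in 82.7% of the windows, below 0.2 in 2.42% and above 0.9 in 3.78%. On the 40 scaffolds with at least 20 such windows, the scaffold medians ran from 0.361 to 0.792 with a middle value of 0.572. The intermediate position was thus spread over scaffolds.

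In the 226 windows where MA embryos were lower by the same margin, the median position was 0.543 for MA sperm (0.368 to 0.667) and -0.041 for FL sperm (-0.093 to 0.018). The mean level there was 0.0986 in MA embryos, 0.427 in MA sperm and 0.795 in the 4 FL libraries.

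**Figure D3:**
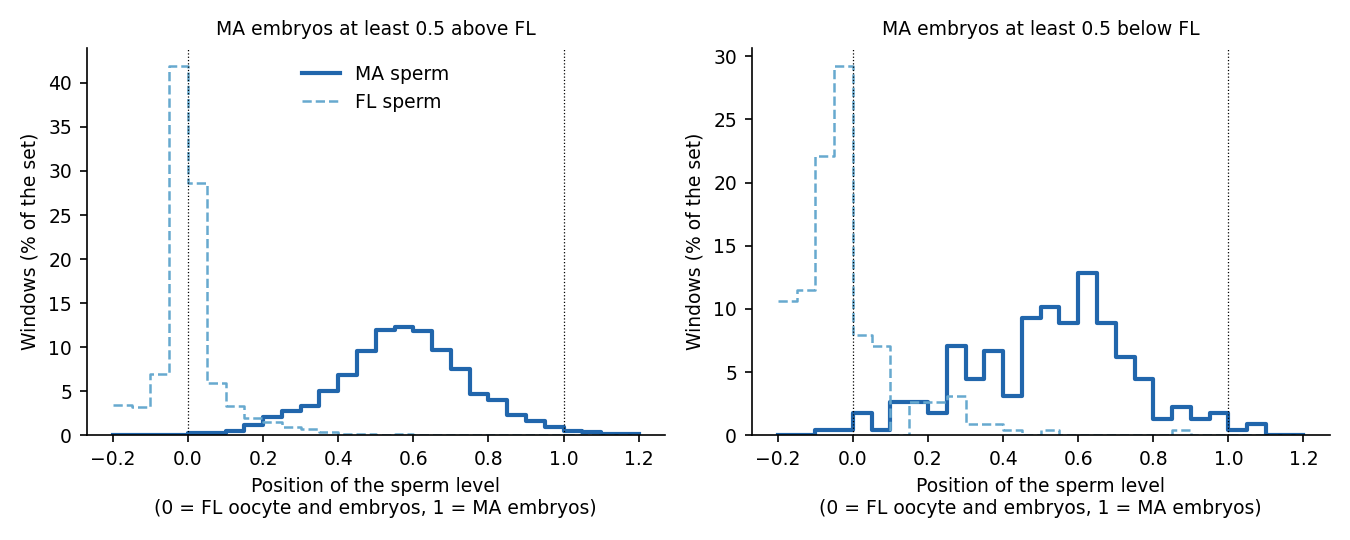
Position of the MA sperm (solid) and FL sperm (dashed) level between the mean of FL oocytes and embryos (0) and the mean of MA embryos (1), as a share of windows per step, for the 3309 windows with MA embryos above FL (left) and the 226 with MA embryos below FL (right); positions beyond the axis are counted in its end steps. FL sperm peaks at 0 and MA sperm forms a single broad peak with medians of 0.576 and 0.543.

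Single CpGs of these windows showed the same intermediate levels, so that most window means did not average fully methylated with fully unmethylated CpGs. In the windows where MA embryos were higher, CpGs with at least 10 reads had a median level of 0.850 at cleavage, 0.824 in blastulae and 0.500 in MA sperm, against 0 in FL sperm. The share of such CpGs between 0.2 and 0.8 was 39.5% of 52037 at cleavage, 44.8% of 73109 in blastulae and 86.3% of 72273 in MA sperm, against 11.5% of 102775 in FL sperm. Where MA embryos were lower, the share was 17.1% at cleavage, 18.0% in blastulae and 79.6% in MA sperm, against 27.5% in FL sperm. The share of CpGs that differed from sperm was also counted within the windows called in both embryos. A median of 75% of a higher window's CpGs were higher than in sperm by at least 0.2 at cleavage and 72.3% in blastulae, and the medians for lower windows were 73.3% and 71.4%. The rule requires window means at least 0.2 apart over these same CpGs, so that these shares describe the windows and test nothing.

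The window with the largest smaller difference from sperm, among windows higher in both with at least 10 CpGs in all 3 MA libraries, was on scaffold_302 from 3001 to 4000 (assembly ASM20922v1, as are all positions given here). Levels and reads of named windows rest on CpGs read at least 5 times in each of the 3 MA libraries, while differences and tests use those of the pair compared, so that a difference need not equal that of the levels. The level was 0.824 at cleavage, 0.872 in blastulae and 0.0638 in MA sperm, and 0.00579 to 0.0255 in the FL libraries. Methylation was read in 72 of 87 reads at cleavage (95% Wilson interval of the share 0.735 to 0.893), 231 of 263 in blastulae (0.833 to 0.912) and 9 of 142 in MA sperm (0.0337 to 0.116). Over the CpGs of each pair, the difference from sperm was 0.76 at cleavage (Fisher's exact test, adjusted p = 1.78e-31) and 0.79 in blastulae (adjusted p = 1.08e-76). In this window MA sperm was nearly as low as the FL libraries, which sets it apart from most of the windows of its group.

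The next windows had MA sperm levels of 0.203 to 0.308. On scaffold_66 from 201001 to 202000, the level was 0.965 at cleavage, 0.976 in blastulae and 0.268 in MA sperm over 27 CpGs. On scaffold_196 from 79001 to 80000, it was 0.910 at cleavage, 0.881 in blastulae and 0.234 in MA sperm over 46 CpGs, from 553, 815 and 948 reads. The embryo levels of both windows did not overlap with the sperm levels in their 95% Wilson intervals. On scaffold_113 from 201001 to 202000, it was 0.947 at cleavage, 0.944 in blastulae and 0.308 in MA sperm, and FL blastulae reached 0.156 there, the highest FL level among the 8 windows. Of the 8 windows that the rule named, 3 windows, starting at 48001, 51001 and 70001, lay on scaffold_364. At 48001 the level was 0.866 at cleavage, 0.915 in blastulae and 0.238 in MA sperm. At 51001 it was 0.895, 0.913 and 0.242 in the same order, and at 70001 it was 0.972, 0.874 and 0.239. On scaffold_279 from 61001 to 62000, the level was 0.854 at cleavage, 0.908 in blastulae and 0.203 in MA sperm. All 8 windows were at or below 0.156 in every FL library.

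Among the windows lower in both, the largest smaller difference was on scaffold_41 from 420001 to 421000. Its level was 0.0445 at cleavage, 0.0610 in blastulae and 0.683 in MA sperm, and 0.886 to 0.928 in the FL libraries. Over the CpGs of each pair, the difference from sperm was -0.64 at cleavage (Fisher's exact test, adjusted p = 1.83e-42) and -0.66 in blastulae (adjusted p = 2.44e-42). A window that is unmethylated in MA embryos was thus methylated in the FL libraries and at an intermediate level in MA sperm. On scaffold_74 from 690001 to 691000, the level was 0.0128 at cleavage, 0.00790 in blastulae and 0.705 in MA sperm. On scaffold_85 from 537001 to 538000, it was 0.0207 at cleavage, 0.00874 in blastulae and 0.593 in MA sperm, and 0.896 to 0.934 in the FL libraries.

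Of the 8 lower windows, 4 had no methylated read in 1 of the embryos. The share that such a count still allows is given as 3 divided by the reads, which treats reads as independent. This is below the 95% Wilson upper limit, which was 0.0229 to 0.0432 for these counts. On scaffold_87 from 170001 to 171000, methylation was read in 0 of 97 reads at cleavage, which allows a share of up to 0.0309, in 2 of 90 in blastulae and in 69 of 109 in MA sperm. On scaffold_329 from 239001 to 240000, it was read in 0 of 164 reads at cleavage, which allows up to 0.0183, in 7 of 144 in blastulae and in 134 of 220 in MA sperm. In both windows the MA sperm library had methylation in most reads, and the embryo libraries in few or none. On scaffold_41 from 516001 to 517000, it was read in 0 of 119 reads at cleavage, which allows up to 0.0252, in 2 of 122 in blastulae and in 64 of 126 in MA sperm. On scaffold_624 from 14001 to 15000, it was read in 3 of 57 reads at cleavage, in 0 of 85 in blastulae, which allows up to 0.0353, and in 47 of 78 in MA sperm. That window is the only 1 of the 8 in which an FL sperm level, 0.443, was below the MA sperm level, 0.550. On scaffold_43 from 189001 to 190000, the level was 0.0756 at cleavage, 0.0758 in blastulae and 0.579 in MA sperm.

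Windows higher in both embryos often lay next to each other along scaffolds. They fell on 586 scaffolds, and 61.1% of them were in runs of 2 or more adjacent windows, with 98 runs of 5 or more. The windows lower in both fell on 292 scaffolds, 30.7% of them in runs, with 1 run of 5 windows as the longest. Adjacent windows can share fragments and are not independent. Shares in runs were not computed for other windows, and a longer list of windows can form more runs. The shares in runs therefore only describe the windows. Of 2961 higher windows with both neighbours tested, 64.5% had a neighbour above 0.8 in MA embryos, against 24.4% of all 169017 such windows, and 16.3% had a neighbour above 0.8 in MA sperm, against 23.0% of all. Higher windows thus mostly adjoined windows that were methylated in the embryos. Within runs, however, the neighbours were themselves called by the same rule, and most of all windows tested were unmethylated. These shares therefore describe the windows and test nothing.

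The longest run of higher windows, 14 windows on scaffold_187 from 109001 to 123000, had a level of 0.823 over 576 CpGs at cleavage, 0.818 over 589 in blastulae and 0.492 over 586 in MA sperm. The level was 0.0545 in FL cleavage embryos, 0.0624 in FL blastulae, 0.0561 in FL gastrulae, 0.0789 in FL oocytes and 0.0425 in FL sperm. This scaffold also had the highest share of higher windows among the 289 scaffolds with at least 200 windows tested, with 56 of 418, or 13.4%. The run of 13 windows on scaffold_141 from 144001 to 157000 had 0.939 at cleavage, 0.934 in blastulae and 0.571 in MA sperm, and 0.0748 to 0.0905 in the FL libraries. The run of 12 windows on scaffold_228 from 132001 to 144000 had 0.765 at cleavage, 0.767 in blastulae and 0.403 in MA sperm, and 0.0173 to 0.0253 in the FL libraries. In the run on scaffold_187, MA sperm was between both MA embryos and all FL libraries in 13 of the 14 windows, at 0.372 to 0.574 over the run, and in the remaining window FL oocytes reached 0.543.

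The longest run of lower windows was 5 windows on scaffold_508 from 74001 to 79000. Its level was 0.182 over 92 CpGs at cleavage, 0.348 over 108 in blastulae and 0.712 over 142 in MA sperm. The FL libraries had 0.841 to 0.892 over 159 to 161 CpGs. These levels thus do not all rest on the same CpGs. On scaffold_192 from 69001 to 73000, the level was 0.159 at cleavage, 0.152 in blastulae and 0.427 in MA sperm. On scaffold_103 from 248001 to 252000, it was 0.0536 at cleavage, 0.0766 in blastulae and 0.346 in MA sperm. In those last 2 runs, the FL gametes themselves differed, with 0.501 in FL oocytes and 0.804 in FL sperm on scaffold_192, and 0.505 in FL oocytes and 0.933 in FL sperm on scaffold_103. Of the 289 scaffolds, 228 had more higher than lower windows and 30 had more lower ones. The highest share of lower windows was 8 of 340, or 2.35%, on scaffold_222.

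**Figure D4:**
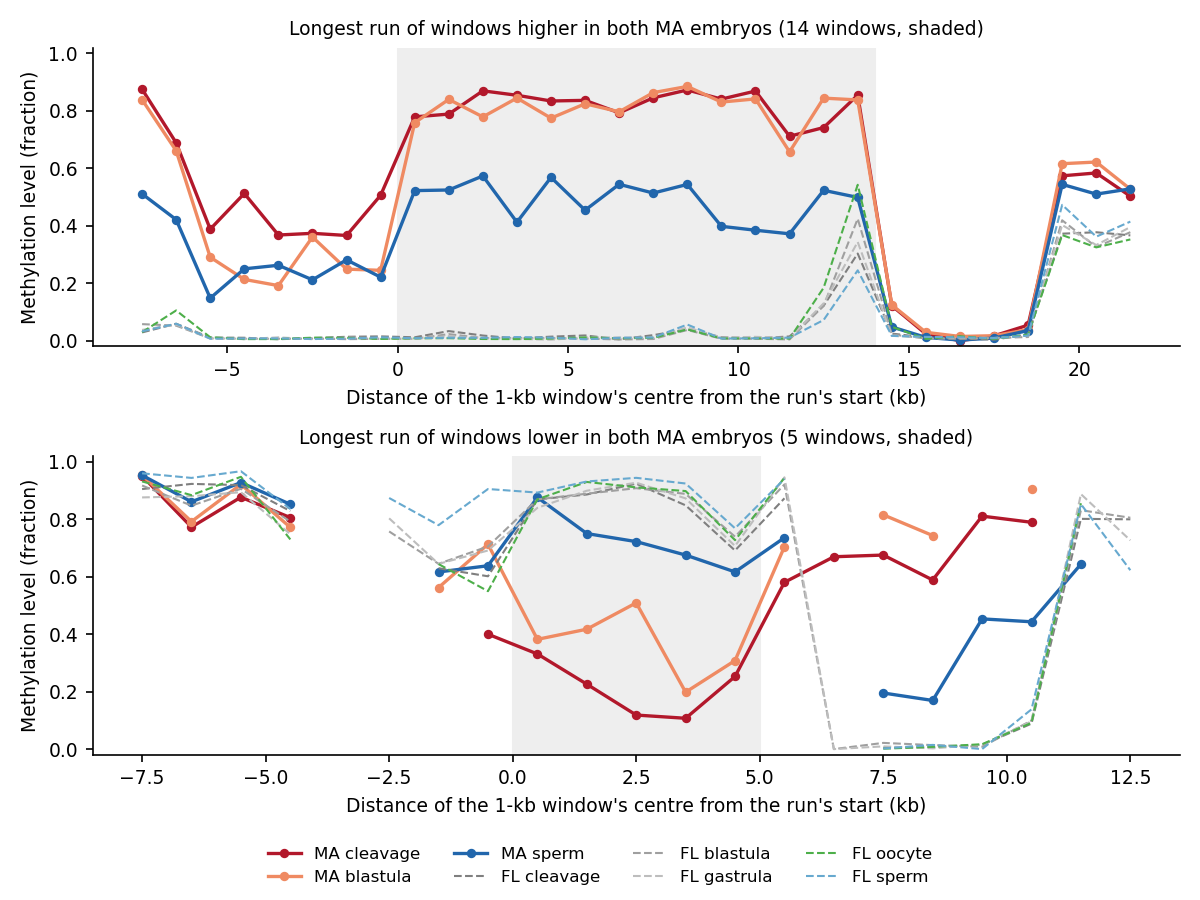
Methylation level (fraction) of 1-kb windows along the longest run of higher windows (top) and of lower windows (bottom), against the distance of the window's centre from the start of the run in kb, for the 3 MA libraries (solid lines with points) and the 5 FL libraries (dashed); shading marks the run and lines break where a library has no level. In the top run MA sperm, at 0.492 on average, lies between both MA embryos and all FL libraries in 13 of 14 windows, and in the bottom run it does so in 4 of 5.

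Cleavage embryos and blastulae of MA differed from each other in fewer windows than either did from sperm. Of 229243 windows, 1296 differed between blastulae and cleavage embryos (0.565%), with 408 higher and 888 lower in blastulae. Of the windows called in both embryos against sperm, this comparison also called 70 of the 3834 higher and 21 of the 644 lower ones. Among windows called against sperm at cleavage only, it called 401 of 2109 higher and 89 of 562 lower windows, and among those called in blastulae only, 145 of 1217 higher and 107 of 723 lower windows. The larger part of the windows called in a single embryo were thus not called between the embryos.

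The rule also named 4 windows that were called in a single embryo and between the embryos. On scaffold_90 from 625001 to 626000, the level was 0.336 in blastulae, 0.832 at cleavage and 0.153 in MA sperm. On scaffold_14 from 917001 to 918000, it was 0.420 in blastulae, 0.830 at cleavage and 0.283 in MA sperm. Both were called higher than sperm at cleavage only, although blastulae were also above sperm, by 0.19 on scaffold_90 (adjusted p = 9.99e-05, below the minimum difference of 0.2) and by 0.03 on scaffold_14 (Fisher's exact test, adjusted p = 0.316). On scaffold_33 from 483001 to 484000, the level was 0.692 in blastulae, 0.184 at cleavage and 0.808 in MA sperm, and on scaffold_28 from 965001 to 966000, it was 0.521 in blastulae, 0.182 at cleavage and 0.646 in MA sperm. Another 4 windows, reported after their values were seen, were called against sperm in opposite directions. Of these, 3 were higher than sperm at cleavage and lower in blastulae. The level was 0.351 in blastulae, 0.835 at cleavage and 0.594 in MA sperm on scaffold_36 from 872001 to 873000. On scaffold_362 from 131001 to 132000, it was 0.276 in blastulae, 0.714 at cleavage and 0.509 in MA sperm, and on scaffold_1061 from 7001 to 8000, it was 0.119 in blastulae, 0.707 at cleavage and 0.457 in MA sperm. The fourth, on scaffold_1218 from 27001 to 28000, had 0.829 in blastulae, 0.151 at cleavage and 0.511 in MA sperm.

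The same comparison in FL gave fewer windows and another balance of directions. In FL, 3173 of 261008 windows differed between cleavage embryos and sperm (1.22%) and 2588 of 272706 between blastulae and sperm (0.949%). In both FL embryos, 641 of 260665 windows were higher than in FL sperm (0.246%) and 879 were lower (0.337%). Higher windows made up 42.2% of those called in both in FL and 85.6% in MA, and this difference between the populations was not tested, as each has 1 library per stage. With the FL libraries thinned to the reads of the MA libraries, 448 windows were higher, still further below the 3834 in MA. After this thinning 655 windows were lower in FL, against 644 in MA. Of the 3834 windows higher in both MA embryos, 3793 were tested in FL, and 61 of these were called higher in both FL embryos and 76 were called lower. The 61 windows are 1.61% of the MA list and 12.4% of the FL list of 492 tested in MA. Of the lower windows, 24 were called lower in both populations, which is 3.85% of the MA list and 3.23% of the FL list of 743, and 13 were called higher in both FL embryos.

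In some of the windows called, MA sperm was beyond all 7 other libraries. Among windows higher in both MA embryos, MA sperm was below every other library in 92 of 3782 windows (2.43%), and by at least 0.2 in 4. Among windows lower in both, it was above every other library in 89 of 619 (14.4%), and by at least 0.2 in 14. Over all 218073 windows with levels in these libraries, most of them unmethylated, MA sperm was below all 7 others in 10.1% and above all 7 in 15.9%. The 14 windows had a median level of 0.265 at cleavage, 0.209 in blastulae and 0.607 in MA sperm, and 0.0553 to 0.115 in the FL libraries. An example of each, chosen after the values were seen, follows. On scaffold_7891 from 3001 to 4000, the level was 0.892 at cleavage, 0.895 in blastulae and 0.592 in MA sperm, and 0.899 to 0.933 in the FL libraries. On scaffold_295 from 216001 to 217000, it was 0.277 at cleavage, 0.235 in blastulae and 0.681 in MA sperm, and 0.0212 to 0.0685 in the FL libraries.

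The direction of the difference varied with how methylated a window was in FL oocytes, which are independent of all 3 MA libraries. A window with almost no methylation in sperm can hardly be lower in embryos, and a fully methylated window can hardly be higher. Part of this variation is thus built in. Of 20909 windows at 0.2 to 0.8 in FL oocytes, where both directions are possible, 4.78% were higher and 1.83% were lower in both embryos. Windows at 0.1 to 0.2 in FL oocytes had a mean level of 0.288 at cleavage, 0.278 in blastulae and 0.238 in MA sperm, and 8.09% of these 5611 windows were higher in both embryos. Windows above 0.8 in FL oocytes had a mean level of 0.903 at cleavage, 0.882 in blastulae and 0.914 in MA sperm, and of these 33107 windows 0.0544% were higher and 0.580% were lower in both embryos. In this most methylated class, embryos were lower than sperm in both populations, with mean differences of -0.0102 at cleavage and -0.0321 in blastulae in MA, and -0.0428 at cleavage and -0.0295 in blastulae in FL. Below 0.2 in FL oocytes, the mean difference from sperm was 0.0123 at cleavage and 0.0111 in blastulae in MA, and 0.00265 at cleavage and -0.00196 in blastulae in FL. In steps of 0.1, the mean difference in MA was positive in both embryos up to 0.6 in FL oocytes and negative in both from 0.7 on. At 0.6 to 0.7 it was 0.00606 at cleavage and -0.0113 in blastulae.

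**Figure D5:**
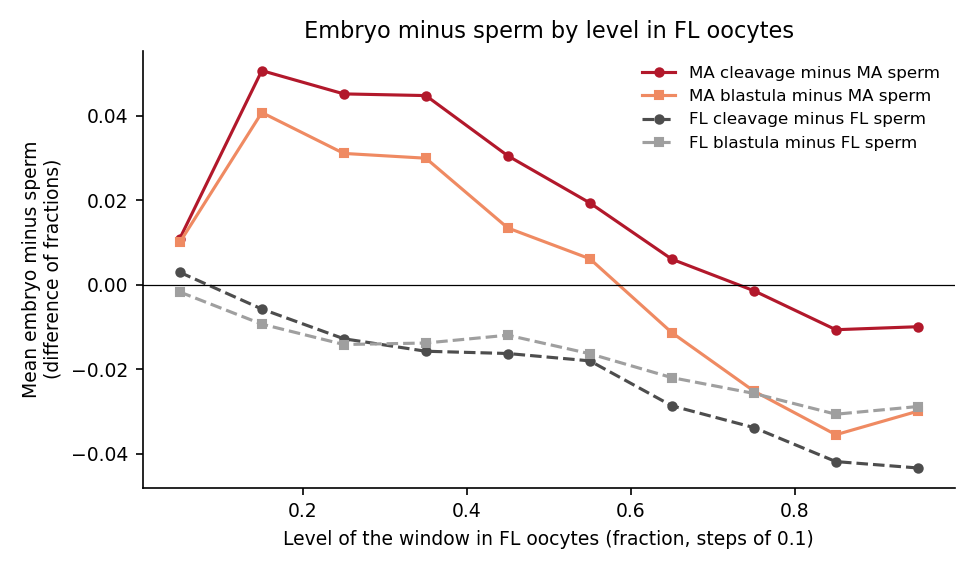
Mean embryo minus sperm difference (difference of fractions) over windows grouped by their level in FL oocytes (fraction, steps of 0.1), for MA (solid) and FL (dashed) cleavage embryos and blastulae. Both MA lines are above 0 up to a level of 0.6 and below 0 from 0.7 on, and between these the cleavage line is above 0 and the blastula line below it, while the FL lines are below 0 at every step from 0.1 on.

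Higher windows were close to all windows in CpG content and read depth, and lower windows held fewer CpGs. A higher window held a median of 33 CpGs (interquartile range 24 to 41), a lower window 26 (17 to 35), and all windows tested held 32 (20 to 41). The median depth per CpG in higher windows was 10.4 reads at cleavage, 13.7 in blastulae and 13.1 in MA sperm, against 10.5, 14.3 and 13.0 over all windows. Windows above 3 times the median depth in any MA library made up 0.548% of the higher, 0.466% of the lower and 1.10% of all windows. Of the windows with an adjusted p below 0.05 in both embryos, 1469 higher and 406 lower ones fell just short of the minimum difference, with a smaller difference of 0.15 to 0.2, and 1204 and 275 lay just past it, at 0.2 to 0.25. Genes and sequences at these positions are not analysed here.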

How the data were processed

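WGBS calls of 3 MA and 5 FL sea anemone libraries were used. The authors ran Trimmomatic for trimming and Bismark for alignment to ASM20922v1 and lambda DNA, removed duplicates, clipped overlapping pairs with bamUtil and extracted calls over both strands. SAMtools 0.1.19 is listed in the submitters' processing notes. The deposited counts give methylated and unmethylated reads per CpG as the authors' tools counted them. The deposited fraction equals methylated over all reads of the CpG within 5e-05. It was not corrected for non-conversion, so that differing conversion would shift levels. The study's supplement lists the same rounded conversion rate for the 3 MA libraries. Its rates for the FL embryos differ from that of FL sperm.

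CpGs with at least 5 reads in both libraries and 1000-bp windows with at least 3 of them were compared by 2-sided Fisher's exact test with Benjamini-Hochberg adjustment, written in Python 3.11.15 (numba 0.67.0, numpy 2.4.6, pandas 2.3.3; checked against scipy 1.17.1; figures with matplotlib 3.10.9). A call required mean CpG levels at least 0.2 apart and an adjusted p below 0.05. The minimum of 3 CpGs and the difference of 0.2 follow the study's methods, which used another tool. The window test was tried on simulated data with the MA depths, in which reads were drawn independently for each CpG. The simulation thus cannot show the effect of fragments that cover several CpGs. Named windows were the 8 per direction with the largest smaller difference and at least 10 CpGs in the 3 MA libraries, the 3 longest runs per direction, and 2 per direction called in 1 embryo only and between the embryos. The comparison and this rule were chosen with earlier results of these data known. Alternatives varied the read and CpG minimum, window size, thresholds, weighting and depth.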

Additional observations from a re-analysis of the deposited data

Results flagged for a closer look

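The mean difference between embryos and sperm had opposite signs in the populations, and this was not tested, since each population has 1 library per stage. Over shared CpGs, MA embryos were above MA sperm by 0.0107 at cleavage and 0.00726 in blastulae. FL embryos minus FL sperm gave -0.00243 at cleavage, -0.00479 in blastulae and -0.00318 in gastrulae. The conversion rates listed for FL embryos differ from that of FL sperm, and their effect on these differences was not tested. For FL cleavage embryos the sign turned, to 0.000916, when reads were pooled and deep CpGs left out together, and stayed negative with either change alone, at -0.0119 and -0.00245.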

How the results depend on the processing

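No paired analysis was possible because each stage has 1 library. No alternative changed which direction was more frequent among windows called in both MA embryos wherever windows were called: higher windows made up 81.6% to 88.4%. Counts for cleavage, blastulae and both embryos moved by over 1.5 times with 500-bp windows (12688, 12111 and 7672), 2000-bp windows (3773, 3476 and 2360), a minimum difference of 0.1 (12896, 13252 and 8507) or 0.3 (3541, 3082 and 1883), and with reads divided by CpGs (0, 2 and 0 by Fisher's exact test; at an unadjusted p below 0.05, 957 windows at cleavage and 470 in both). That division ended the call of all 20 named windows, and it changes only the p-value, so that their direction could not change. These windows kept their direction and their call in the other 72 values computed. With at least 10 reads per CpG, not all named windows could be tested, and those on scaffold_302 and scaffold_66 were among the windows left out. The mean difference from MA sperm at cleavage and in blastulae was 0.0114 and 0.00783 with at least 1 read per CpG, 0.0105 and 0.00704 with at least 10, 0.0106 and 0.00699 over CpGs of all 3 libraries, 0.00922 and 0.000582 with reads pooled, and 0.0102 and 0.000609 with CpGs above 5 times the median depth also left out. Thinning to equal reads gave 0.00709 in blastulae. For FL, pooling gave -0.0119 at cleavage, -0.00117 in blastulae and -0.00312 in gastrulae, and with deep CpGs also left out 0.000916, of opposite sign, at cleavage, -0.000913 in blastulae and -0.00343 in gastrulae. The cause was not tested. The FL settings, the pooled setting without deep CpGs and the position of MA sperm were chosen after seeing the data. The median position ran from 0.552 to 0.603 for higher and from 0.512 to 0.630 for lower windows over 7 alternatives each. Windows not covered in all libraries limit the comparison, and 1 library per stage leaves the spread between animals unknown.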
